A study of Botryllus schlosseri with 12 samples.

Results

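Complement C3/5 and coagulation factor XIIIb of the colonial tunicate Botryllus schlosseri were followed over the first day of whole-body regeneration (WBR). Each was followed through 1 assembled transcript, or contig, of the 32561 contigs quantified. The study places C3/C5 orthologues in more than 1 of its groups of contigs, so 1 contig does not stand for all of them. The contig TRINITY_DN18533_c0_g2_i2.p1 carries the name C3/5, and the contig TRINITY_DN13609_c0_g3_i1.p1 carries the name coagulation factor XIIIb, each in a gene tree of the study. These 2 contigs were taken by those names, but with earlier results of these data already known. The study also drew both from groups of contigs that changed across the same libraries. It reported C3/5 mostly among rising groups and factor XIIIb among falling ones. Neither the fact nor the direction of their change is therefore independent evidence.

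The 12 colonies were grown as subclones of a single isogenic strain, and zooids and buds were removed from every one of them with microsurgery tools. Bulk RNA of the injured colony was collected directly after surgery, at 0 hours post-injury (hpi), and at 6, 18 and 24 hpi, from 3 colonies per time point (replicates 1, 2 and 3). All groups therefore share the genotype and the injury and differ in the hours of recovery in filtered seawater, and the 0 hpi colonies had already been operated on. What remains after surgery is mainly the tunic with its vessels, ampullae and circulating hemocytes, and the study describes small pieces of other tissue that were left behind.

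C3 and C5 are related plasma proteins at the centre of the complement cascade. In vertebrates, cleaved C3 binds covalently to microbial and damaged surfaces and marks them for phagocytosis, and cleaved C5 opens the path to the membrane attack complex. Tunicates have an innate immune system only, and C3-like genes are known in ascidians. Factor XIII is the transglutaminase that crosslinks fibrin at the end of the mammalian clotting cascade. Its A subunit is the enzyme and its B subunit, F13B, is a carrier protein built of sushi repeats, the fold that many complement regulators share.

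The names rest on sequence trees, and the 2 labels do not have the same footing. In its tree the C3/5 contig pairs with an existing C3 sequence of Botryllus schlosseri and lies outside both the mammalian C3 and the mammalian C5 groups, so the label names their common family. In the other tree the factor XIIIb contig branches outside the group that holds mammalian F13B together with ascidian sushi proteins. Sushi repeats occur in many proteins, and the name is kept here as a label. The rows of the table carry no gene names, so neither tissue markers nor other complement and coagulation genes were read from it.

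Library totals ran from 2076597 to 3992991 estimated counts, with a median of 2927413, and 31383 contigs passed the filter on low counts, both C3/5 and factor XIIIb among them. A call of higher or lower needed an adjusted p under 0.05 together with a log2 fold change beyond 1 in either direction. The p-values measure the spread between subclones of 1 strain. In bulk RNA, more or fewer cells of a type and more or less RNA per cell cannot be told apart.

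The C3/5 contig rose within 6 h of the injury to about 2.68 times its 0 hpi level and was still above that level at 18 and 24 hpi. At 0 hpi its normalised read count, scaled by the TMM method to counts per 1000000 counts of the library (CPM), was 463.5, 282.8 and 399.4 in replicates 1, 2 and 3, and at 6 hpi it was 995.6, 1038 and 1037 CPM. All 3 colonies at 6 hpi lay above all 3 at 0 hpi, an absence of overlap that 15.5% of tested contigs showed in this direction. At 18 hpi the values were 716.4, 857.8 and 920.0 CPM, and at 24 hpi they were 916.2, 988.6 and 826.2 CPM. No overlap in this direction was seen in 16.5% of tested contigs at 18 hpi and in 13% at 24 hpi. Each of the 9 later libraries was above the highest 0 hpi library, which held for 4.44% of tested contigs. In CPM every 6 hpi library exceeded every library of 18 and 24 hpi, an order that 9.98% of tested contigs showed, and 18 and 24 hpi overlapped. The margin was narrow, 995.6 against 988.6 CPM, and the order did not hold without TMM scaling. As a plain share of library counts, replicate 3 of 18 hpi held 0.101% and replicate 1 of 24 hpi 0.0995%. The highest 6 hpi share was 0.0994%, in replicate 2. Taken against 6 hpi alone, 17.2% of contigs were lower without overlap at 18 hpi and 13.9% at 24 hpi.

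The C3/5 contig averaged 381.9 ± 91.6 CPM in the 0 hpi colonies and 1023 ± 24.0 CPM at 6 hpi, then 831.4 ± 104 and 910.3 ± 81.4 CPM at 18 and 24 hpi (SD, n = 3 each). Relative to the mean, the scatter was widest at 0 hpi. The coefficient of variation was 24.0% there and 2.34, 12.6 and 8.94% at 6, 18 and 24 hpi. At 6 hpi the log2 fold change over 0 hpi reached 1.42 ± 0.201 (SE, 95% interval 1.00 to 1.85, adjusted p = 0.000122). This is a called rise, as were those of 4.63% of tested contigs. At 18 hpi it was 1.12 ± 0.200 (0.70 to 1.55, adjusted p = 0.000824, against 2.93% of contigs called higher), and at 24 hpi it was 1.25 ± 0.200 (0.83 to 1.68, adjusted p = 0.000304, against 3.54%). Only 1.14% of tested contigs, 358 in all, were called higher at each of the 3 later time points. The 18 hpi value stands close to the fold threshold, and without replicate 2 of 0 hpi it was 0.95 and no longer called.

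After 6 hpi no further change of the C3/5 contig was called. The log2 difference was -0.30 from 6 to 18 hpi (95% interval -0.72 to 0.12, adjusted p = 0.418), -0.17 from 6 to 24 hpi (-0.59 to 0.25, adjusted p = 0.698) and 0.13 from 18 to 24 hpi (-0.29 to 0.55, adjusted p = 0.957). Against 6 hpi the mean of 18 and 24 hpi stood at -0.23 on the log2 scale (-0.59 to 0.12, adjusted p = 0.436). The last of these intervals leaves room for a fall as well as for a small rise.

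The factor XIIIb contig went the other way, with a called fall from 0 to 6 hpi, a further one from 6 to 18 hpi, and a level 118-fold under the start at 24 hpi. At 0 hpi it stood at 80.9, 131.8 and 172.9 CPM in replicates 1, 2 and 3, from 227, 494 and 589 counts. At 6 hpi it stood at 32.1, 50.05 and 32.8 CPM, from 79, 115 and 84 counts. The 0 hpi colonies were spread more than those at 6 hpi, and the groups did not overlap, as for 15.9% of tested contigs in this direction.

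At 18 hpi only 7, 12 and 1 counts of the factor XIIIb contig were left in replicates 1, 2 and 3, which is 2.37, 2.97 and 0.312 CPM. At 24 hpi there were 4, 1 and 6 counts, or 0.967, 0.511 and 1.60 CPM. The libraries of 18 and 24 hpi all lay below those of 6 hpi, as in the 9.98% of contigs given above, while the 2 late time points overlapped each other. All 9 later libraries lay below all 3 of 0 hpi, as in 6.98% of tested contigs (17.5% at 18 hpi and 14.7% at 24 hpi, each taken alone). Counting error alone is large here. The single count in replicate 3 of 18 hpi has an exact 95% Poisson interval of 0.00790 to 1.74 CPM, and the 12 counts in replicate 2 have one of 1.54 to 5.20 CPM.

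**Figure D1:**
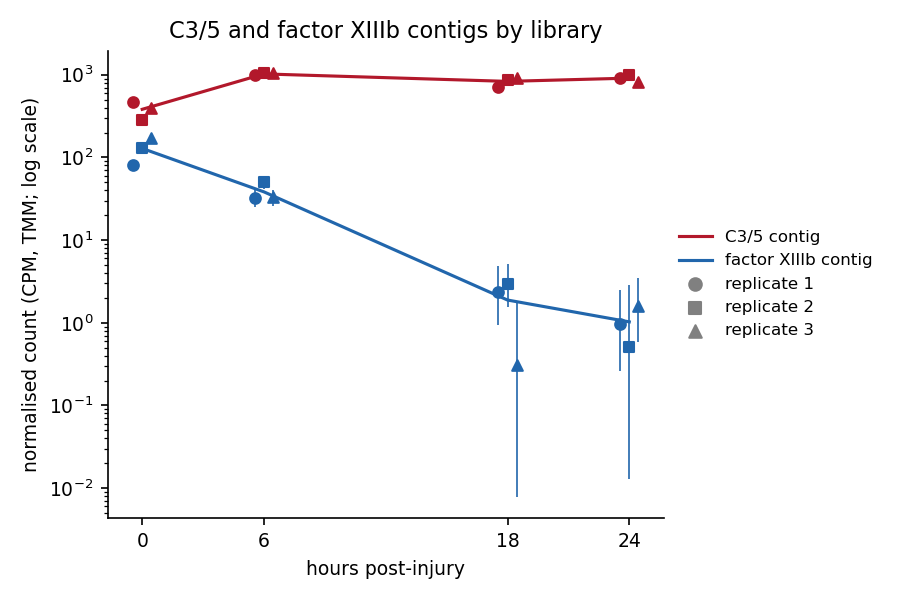
Normalised counts (CPM, log axis) of the C3/5 contig (red) and the factor XIIIb contig (blue) in each of the 12 libraries, against hours post-injury, with marker shapes for replicates, lines through the means of 3 and vertical bars for exact 95% Poisson intervals. The C3/5 means go from 381.9 to 1023 CPM by 6 hpi and are 831.4 and 910.3 at 18 and 24 hpi, while the factor XIIIb means go from 128.5 to 38.3, 1.88 and 1.03 CPM.

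The factor XIIIb contig averaged 128.5 ± 46.0 CPM in the 0 hpi colonies and 38.3 ± 10.2 CPM at 6 hpi, then 1.88 ± 1.40 and 1.03 ± 0.547 CPM at 18 and 24 hpi (SD, n = 3 each). The first fall, from 0 to 6 hpi, had a log2 fold change of -1.75 ± 0.325 (SE, 95% interval -2.45 to -1.05, adjusted p = 0.00245), and 5.03% of contigs were called lower in that comparison. The next fall, from 6 to 18 hpi, was -4.27 ± 0.456 (-5.25 to -3.29, adjusted p = 4.31e-05, against 4.76% called lower). Only 202 contigs, 0.644% of those tested, were called lower at both of these steps. Of the 202, only 11 had a lower log2 fold change than factor XIIIb between 0 and 24 hpi, contigs of its own assembly component counted.

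Over the whole course the factor XIIIb contig changed by -6.02 ± 0.445 on the log2 scale at 18 hpi (SE, adjusted p = 7.29e-07, with 7.08% called lower) and by -6.81 ± 0.486 at 24 hpi (adjusted p = 5.27e-07, with 6.54% called lower). A called fall at each of the 3 later times was shared by 2.9% of tested contigs. Against 6 hpi the 24 hpi level was -5.06 ± 0.505 (adjusted p = 2.82e-05, with 4.13% called lower), and the mean of 18 and 24 hpi was -4.66 ± 0.374 (adjusted p = 1.86e-06, with 5.27% called lower). In summed counts scaled by TMM-adjusted library size the level was 3.46-fold lower at 6 hpi than at 0 hpi (95% counting interval 3.04 to 3.96). It was 67.0-fold lower at 18 hpi (43.2 to 110) and 118-fold lower at 24 hpi (65.5 to 236). These counting intervals leave out the spread between colonies.

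Whether the fall of the factor XIIIb contig went on after 18 hpi was not detectable at this depth. The libraries held 20 counts in all at 18 hpi and 11 at 24 hpi, a 1.76-fold difference with a counting interval of 0.802 to 4.06. The fitted log2 difference was -0.79 ± 0.719 (95% interval -2.33 to 0.76, adjusted p = 0.910). Few contigs of any kind were called between these times, 0.0223% higher and 0.00319% lower.

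The pace of change was compared between intervals. The C3/5 contig gained 0.237 ± 0.034 log2 units per hour up to 6 hpi and then changed by -0.025 ± 0.016 per hour from 6 to 18 hpi (SE). The difference of these rates was -0.262 ± 0.0426 per hour (adjusted p = 0.000545), in a contrast in which 6.41% of contigs had a lower and 3.75% a higher later rate at an adjusted p under 0.05. The factor XIIIb contig changed by -0.292 ± 0.054 per hour up to 6 hpi and by -0.356 ± 0.038 per hour from 6 to 18 hpi. For this contig the rates differed by -0.064 ± 0.0761 per hour (95% interval -0.228 to 0.0995, adjusted p = 0.688). The rise of C3/5 was thus measured in the first interval alone, whereas factor XIIIb fell in both, with no difference in rate beyond the error. The factor XIIIb rate from 6 to 18 hpi is an average that ends at 1 to 12 counts per library. Whether its fall ended before 18 hpi was not measured. From 18 to 24 hpi the rates were 0.022 ± 0.033 per hour for C3/5 and -0.131 ± 0.120 per hour for factor XIIIb.

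The courses of the 2 contigs were also compared within each library, as the log2 ratio of C3/5 to factor XIIIb counts with 2 added to each. The ratio uses no scaling factor between libraries, but the added 2 ties it to depth and to its own size where factor XIIIb has few counts, at 18 and 24 hpi. Its level also carries the lengths of the contigs, so only differences between time points are compared, and those that involve 18 or 24 hpi are approximate. The log2 ratio was 2.51, 1.10 and 1.21 at 0 hpi in replicates 1, 2 and 3, and 4.92, 4.35 and 4.95 at 6 hpi. It was 7.88, 7.95 and 9.94 at 18 hpi and 9.30, 9.33 and 8.60 at 24 hpi. The ratio increased without overlap from 0 to 6 hpi and from 6 hpi to the later times, while 18 and 24 hpi overlapped. From 6 hpi to the mean of 18 and 24 hpi, C3/5 changed by -0.23 and factor XIIIb by -4.66 log2 units. The increase after 6 hpi thus reflects the fall of factor XIIIb and no rise of C3/5.

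The log2 ratio averaged 1.60 ± 0.784 in the 0 hpi colonies and 4.74 ± 0.338 at 6 hpi, then 8.59 ± 1.17 and 9.08 ± 0.416 at 18 and 24 hpi (SD, n = 3 each). In 3 two-sided exact permutation tests, the 9 later libraries exceeded the 3 of 0 hpi by 5.87 log2 units (p = 0.00909, the smallest that 220 arrangements allow, adjusted over the 3 tests 0.0273). The study drew the 2 contigs from groups formed on these same libraries, across all time points. The direction of this difference, and of those that follow, is therefore not independent evidence. The 6 libraries of 18 and 24 hpi exceeded the 3 of 6 hpi by 4.09 (exact p = 0.0238, the smallest of 84 arrangements, adjusted 0.0357). Without any 1 of the 6 hpi libraries that difference was 3.90 to 4.20 with an exact p of 0.0714, the smallest such a comparison can give. With 0.5 added in place of 2 it was 4.59, with 5 added 3.52, and with all libraries thinned to the depth of the smallest 3.69, each with an exact p of 0.0238. The difference between 24 and 18 hpi was 0.488 (exact p = 0.4, adjusted 0.4), in a design of 20 arrangements that cannot go below 0.1. Single libraries moved it widely, from 0.133 without replicate 1 and 0.168 without replicate 2 of 18 hpi to 1.16 without replicate 3 of 18 hpi.

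**Figure D2:**
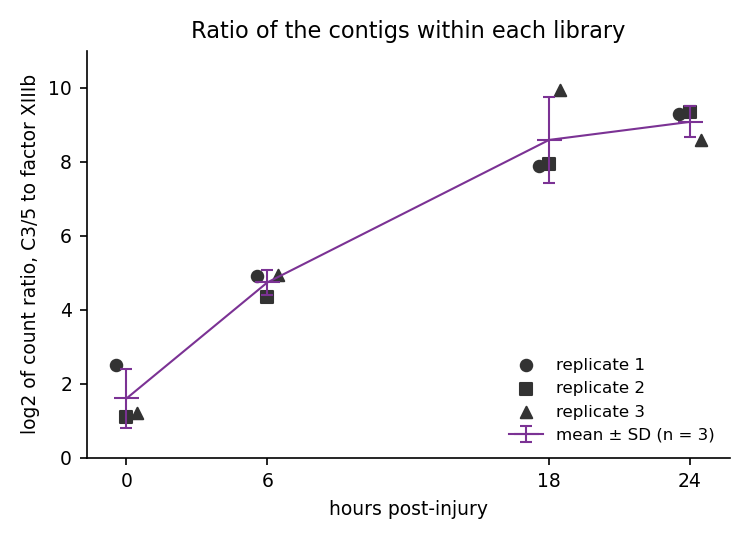
The log2 ratio of C3/5 to factor XIIIb counts within each library (vertical axis) against hours post-injury, with a marker per replicate and the mean ± SD of 3 in purple. The ratio goes from a mean of 1.60 at 0 hpi to 4.74 at 6 hpi and 8.59 at 18 hpi, and the libraries of 18 and 24 hpi overlap.

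Trinity, the assembler, sorts contigs into components of overlapping sequence and, within them, into putative genes and isoforms. The C3/5 component holds 5 contigs and the factor XIIIb component 4, all of which were tested, and each of the named contigs is the only contig of its Trinity gene. Contigs of a component share sequence and possibly reads, so they are no replicates. The C3/5 estimate was not a whole number in 10 of 12 libraries, and each of the other 4 contigs had such estimates too. Reads were thus divided with similar contigs, which the table does not identify and which may lie inside or outside the component. The estimates of the factor XIIIb contig and of the other 3 contigs of its component were whole numbers throughout.

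The courses were shared within both components. The other 4 contigs of the C3/5 component had log2 fold changes of 1.23 to 1.41 at 6 hpi, 0.89 to 1.18 at 18 hpi and 1.20 to 1.33 at 24 hpi. All 4 were called higher at 6 and at 24 hpi, and 3 of 4 at 18 hpi, where the exception had 0.89 (adjusted p = 0.00351) and missed only the fold threshold. The other 3 contigs of the factor XIIIb component had log2 fold changes of -1.72 to -1.65 at 6 hpi, -6.60 to -5.72 at 18 hpi and -7.63 to -6.51 at 24 hpi, all called lower. From 6 to 18 hpi they changed by -4.88 to -4.01, again all called, and from 18 to 24 hpi by -1.91 to 0.09, none called. Over all tested contigs, the shares called higher than 0 hpi at 6, 18 and 24 hpi were 4.63, 2.93 and 3.54%. The shares called lower were 5.03, 7.08 and 6.54%, and 4.76% from 6 to 18 hpi.

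**Figure D3:**
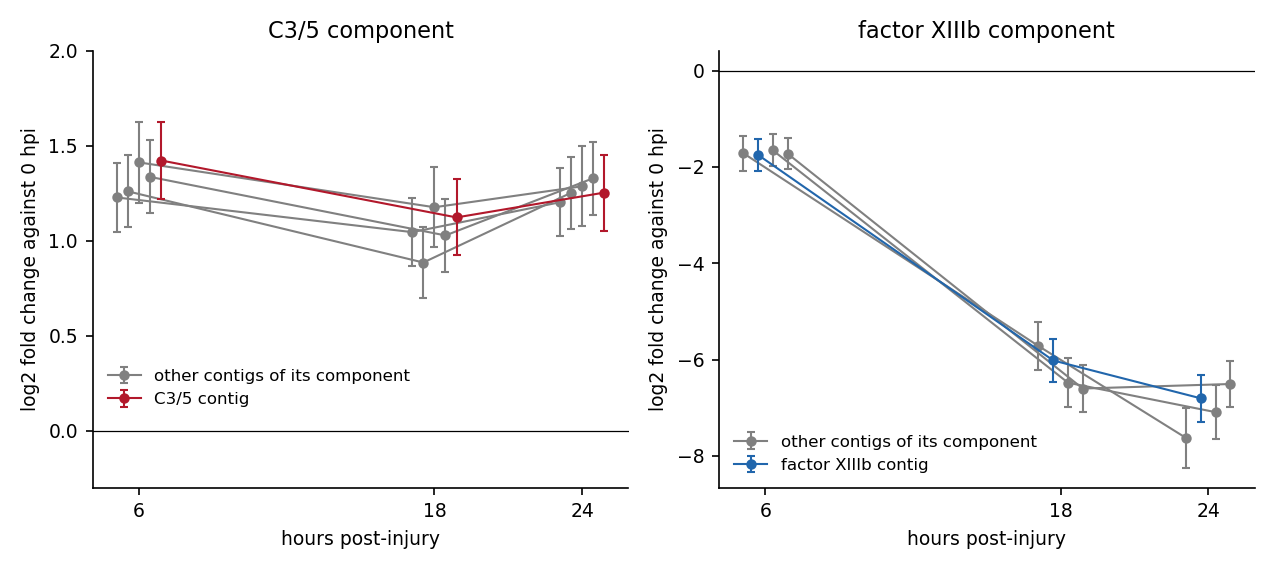
Log2 fold change against 0 hpi with its SE (vertical axis) at 6, 18 and 24 hpi for every contig of the C3/5 component (left, 5 contigs) and of the factor XIIIb component (right, 4 contigs), with the named contig in colour, the others in grey, and points shifted sideways for legibility. The left contigs lie between 0.89 and 1.42, and the right contigs between -1.75 and -1.65 at 6 hpi and below -5.5 later.

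Summed over its contigs, the C3/5 component took 0.144 ± 0.0326% of a library's counts at 0 hpi and 0.377 ± 0.0134% at 6 hpi. The factor XIIIb component fell from 0.0310 ± 0.0105% to 0.00951 ± 0.00252% (SD, n = 3 for both components). At 18 and 24 hpi these shares were 0.349 and 0.360% for the C3/5 component and 0.000453 and 0.000268% for the factor XIIIb component. The C3/5 contig made up a steady part of its component, on average 25.4, 26.3, 25.6 and 25.1% of its counts at 0, 6, 18 and 24 hpi. The factor XIIIb contig made up 39.5% at 0 hpi and 39.0% at 6 hpi. A fit on counts summed per component gave log2 fold changes of 1.39, 1.12 and 1.25 at 6, 18 and 24 hpi for C3/5 and of -1.70, -6.17 and -6.97 for factor XIIIb, all called. These estimates lie close to those of the named contigs alone. Reads shared with contigs of other components are not brought together by this sum.

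The spread among the 0 hpi colonies was largely shared within a component. All 4 contigs of the factor XIIIb component were lowest in replicate 1 and highest in replicate 3. Of the 5 contigs of the C3/5 component, 4 were highest in replicate 1 and 4 were lowest in replicate 2. Replicate 1 of 0 hpi was thus the library in which the log2 ratio of C3/5 to factor XIIIb, 2.51, came closest to the 6 hpi values. Pooled within time points, the SD of log2 CPM was 0.216 for the C3/5 contig and 0.660 for the factor XIIIb contig, the latter including the libraries with 12 counts or fewer.

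How far each contig moved was then set against contigs of similar level, meaning tested contigs within 0.5 log2 CPM of it at 0 hpi and therefore with similar counting error there. The percentile is a description with no test, and the 0 hpi level that chose the contigs also enters each fold change. The C3/5 contig, at 8.55 log2 CPM, had 208 such contigs, none from its own component. Its rise at 6 hpi lay at percentile 94.2 of theirs, with 12 rising more. At 18 hpi it lay at percentile 99.0, with 2 rising more, and at 24 hpi at percentile 98.6, with 3 rising more.

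Contigs as abundant as C3/5 at 0 hpi were called lower more often than higher, and most were not called. Their median log2 fold change was -0.34, -0.44 and -0.28 at 6, 18 and 24 hpi, while that of all tested contigs was -0.01, 0.01 and 0.01. Of the 208, only 16, 5 and 6 were called higher at these times (7.69, 2.40 and 2.88%), and 39, 75 and 63 were called lower. More of these contigs stood above C3/5 at 6 hpi than at 18 and 24 hpi, although its own estimate was highest at 6 hpi. The percentile depends on how the contigs are matched. Matched on the mean of all 12 libraries in place of 0 hpi, it was 89.7, 94.3 and 94.3 at 6, 18 and 24 hpi.

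The factor XIIIb contig, at 6.95 log2 CPM, had 936 contigs of similar 0 hpi level, again none from its own component. At 6 hpi its change lay at percentile 6.41, with 60 contigs falling more, at 18 hpi at percentile 1.92, with 18 falling more, and at 24 hpi at percentile 0.748, with 7 falling more. The median log2 fold change of the 936 was -0.17, -0.19 and -0.13, and 137, 207 and 196 of them were called lower (14.6, 22.1 and 20.9%). At 6 hpi the fall of factor XIIIb was therefore within the range of a sizeable group, and by 24 hpi few contigs of its starting level had gone lower. Matched on the mean of all 12 libraries, the percentiles were 1.60, 0.136 and 0.0372. Single libraries moved them as well. Without replicate 3 of 0 hpi they were 10.03, 3.03 and 1.11, without replicate 1 of 0 hpi the 18 and 24 hpi values were 1.00 and 0.286, without replicate 2 of 18 hpi the 18 hpi value was 0.854, and without replicate 1 of 24 hpi the 24 hpi value was 1.28.

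**Figure D4:**
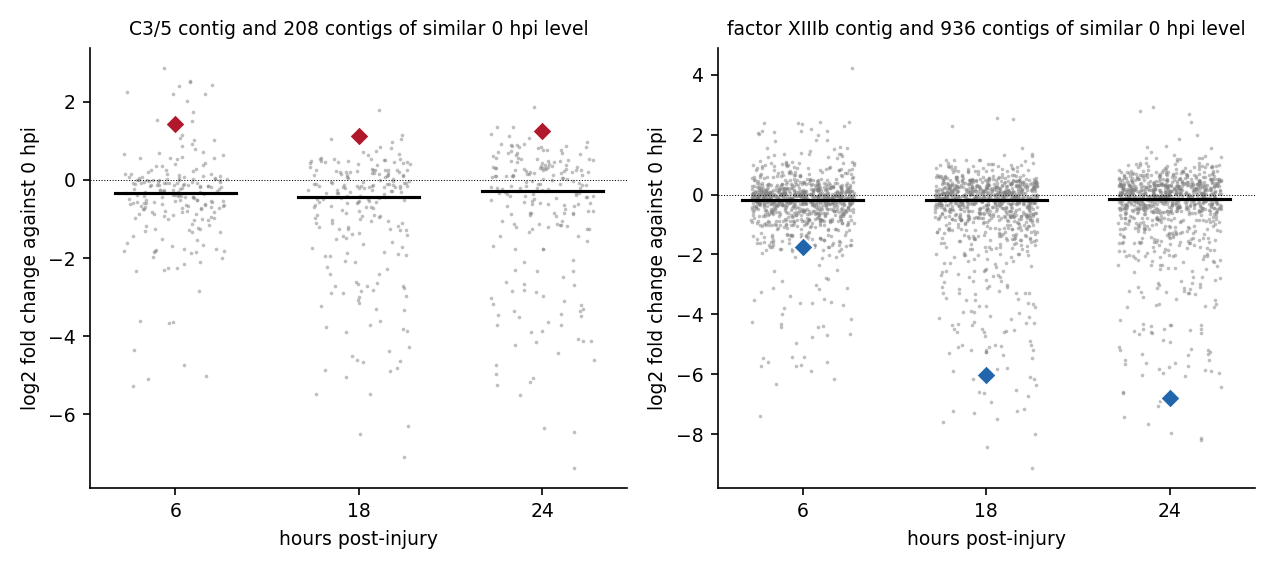
Log2 fold change against 0 hpi (vertical axis) at 6, 18 and 24 hpi of the contigs of similar 0 hpi level (grey points, 208 for C3/5 on the left and 936 for factor XIIIb on the right, shifted sideways at random), with their median as a black bar and the named contig as a coloured diamond. C3/5 stands near the top of a cloud whose median is below 0, with 12, 2 and 3 points above it, and factor XIIIb stands 60, 18 and 7 points from the bottom.

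The contigs most like each of the 2 were sought by Pearson correlation of log2 CPM over the 12 libraries, among contigs with a mean of at least 50 counts outside the component. These correlations describe a shared course over the same libraries and carry no test. Of 13489 candidates, TRINITY_DN17701_c4_g2_i2.p1 (r = 0.994) and TRINITY_DN14561_c0_g9_i1.p1 (r = 0.992) were closest to C3/5. Their log2 fold changes at 6, 18 and 24 hpi were 1.41, 1.10 and 1.27 for the former and 1.37, 1.15 and 1.21 for the latter. In comparison, the other contigs of the C3/5 component correlated with it at 0.932 to 0.995, and 45 candidates exceeded the lowest of these. The tree that names the C3/5 contig also holds 2 tips whose shortened labels show the numbers of these same 2 components, among the sequences set apart from the C3 and C5 groups. The labels are cut before the contig, so the tips cannot be tied to these contigs, and the components do not follow C3/5 as a whole. The 5 contigs of TRINITY_DN14561_c0, the one picked above included, correlated with C3/5 at 0.143 to 0.992, with a median of 0.529. Of these 5, 2, 2 and 3 were called higher at 6, 18 and 24 hpi. The 2 contigs of TRINITY_DN17701_c4 correlated at 0.834 and 0.994, and 2, 1 and 1 of them were called higher at these times. Over all tested contigs the shares called higher were 4.63, 2.93 and 3.54%. These components were looked at after the values were seen.

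For factor XIIIb, the closest of 13491 candidates were TRINITY_DN11882_c0_g2_i1.p1 (r = 0.993) and TRINITY_DN11882_c0_g3_i2.p1 (r = 0.992), which belong to the same component as each other. The former changed by -1.34, -4.61 and -5.06 on the log2 scale at 6, 18 and 24 hpi, and the latter by -1.29, -4.86 and -5.24. At 24 hpi they still stood at 9.53 and 13.1 CPM, so their late levels rest on more counts than those of factor XIIIb. The 3 contigs of TRINITY_DN11882_c0, these included, correlated with factor XIIIb at 0.839 to 0.993. Of the 3, 2, 3 and 3 were called lower at 6, 18 and 24 hpi, against 5.03, 7.08 and 6.54% of tested contigs. The other contigs of the factor XIIIb component correlated with it at 0.973 to 0.992, and 17 candidates exceeded the lowest of these. None of these like contigs has a gene name in the table, and they are described by their values alone.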

How the data were processed

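Bulk RNA of 12 colonies, extracted on the same day, was sequenced on an Illumina HiSeq. The authors filtered reads with SortMeRNA and Trimmomatic 0.30, assembled them with Trinity, predicted open reading frames (TransDecoder), merged near-identical ones (cd-hit-est) and deposited the estimated counts of kallisto 0.43.1 per contig, neither normalized nor divided by length. No genome was used.

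These estimated counts, rounded to integers, were tested with edgeR 4.0.16 in R 4.3.3 (TMM, filterByExpr, robust quasi-likelihood fit of all 12 libraries without covariates, Benjamini-Hochberg adjustment over 31383 contigs). Scripts were tested on simulated data. Log2 CPM used a prior count of 2. Poisson intervals (95%) cover counting error only. Replicates differed beyond sampling noise (chi-square per degree of freedom of at least 3.14). Named contigs were the 2 chosen and, for each, the 2 most correlated outside its component. Members, rules and lists were chosen with earlier results of these data known. Fold changes in the authors' supplementary tables were not used. Alternatives were DESeq2 1.42.0, limma-voom (limma 3.58.1), other scalings and filters, summed contigs, thinning, the replicate number as a block and each library left out.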

Additional observations from a re-analysis of the deposited data

How the results depend on the processing

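No result changed direction under any of the alternatives run. Of 543 recomputed values, 520 kept their call or, for values without a test, moved by less than 1 SD between libraries. Some of the 520 could not have changed. The 12 alternatives for the log2 ratio between 24 and 18 hpi cannot give a permutation p under 0.05. Summing per Trinity gene repeats the main ratio, because each named contig is alone in its gene. Leaving out 1 library moved the C3/5 log2 fold change between 1.25 and 1.60 at 6 hpi, between 0.95 and 1.32 at 18 hpi and between 1.08 and 1.45 at 24 hpi against 0 hpi, and the call was lost at 18 hpi only, without replicate 2 of 0 hpi. For factor XIIIb these ranges were -1.98 to -1.47, -6.55 to -5.53 and -7.19 to -6.51, all called.

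The percentile of the C3/5 change at 6 hpi was 95.3 among contigs within 1 log2 unit, 95.4 among the 500 nearest contigs and 89.7 among contigs matched on the mean of all 12 libraries, and 94.2 to 96.5 with 1 library left out. At 18 hpi it was 100 within 0.25 log2 units and 94.3 with the 12-library match, and 98.6 to 99.6 with 1 library left out. At 24 hpi these values were 100, 94.3 and 97.1 to 99.6. For factor XIIIb the 12-library match gave 1.60 at 6 hpi, 0.136 at 18 hpi and 0.0372 at 24 hpi, and leaving out 1 library gave 5.02 to 10.03, 0.854 to 3.03 and 0.286 to 1.28. Matching on all 12 libraries picks contigs by a mean that includes the change itself.

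No pairing of the colonies by replicate number was seen in the values. What the numbers stand for is not stated in the labels. Over 18 pairs of libraries with the same number the correlation of deviations from the group means ran from -0.139 to 0.0918, none above 0.1, and 3 of 12 libraries were closest to their own number. With the replicate number as a block, the log2 ratio of C3/5 to factor XIIIb still differed by 4.09 between 18 and 24 hpi and 6 hpi, with a permutation p of 0.0741, the smallest that the block allows. The block changed no other call. Without 1 library this difference was 3.87 to 4.29, and without any 1 of the 6 hpi libraries the exact permutation p was 0.0714, the smallest possible there. The log2 ratio difference between 24 and 18 hpi was 0.133 to 1.16 with 1 library left out.

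Depth limits the factor XIIIb contig at 18 and 24 hpi, where a library held 1 to 12 counts. Contig length was not used, and sequences and other named genes of the cascades are not analysed here.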
